A study of Mus musculus with 2 samples.

Results

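Fibroblasts rich in transcripts of Igfbp3, Aspn and Thbs2 were examined in Xenium data from mouse skin, in which decoded transcripts of a custom panel of 480 genes are placed in segmented cells. There were 4532 of them among 92679 cells, 2331 in the WT section and 2201 in the Utx-cKO section. A cell was counted as a fibroblast when it held at least 20 transcripts, at least 3 of Lum, Pdgfra, Col5a2 and Mmp2 together, and fewer than 3 of the basal keratinocyte genes Krt5, Krt15 and Col17a1 together. A fibroblast was counted as rich in Igfbp3 and Aspn when Igfbp3, Aspn and Thbs2 summed to at least 3 and exceeded both the sum of Mfap4, Igfbp2 and Apcdd1 and the sum of Sfrp2, Aldh1a3, Sod3 and Pdpn. These cells are called rich cells below, and the remaining cells of the fibroblast gate are called other fibroblasts.

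The study deleted Kdm6a, also named Utx, with a Cre recombinase driven by the Krt14 promoter, which is active in basal keratinocytes and hair follicle epithelium and is not known for activity in dermal fibroblasts. There was 1 whole-skin section of each genotype, WT control and Utx-cKO, cut at 5 µm from fixed, paraffin-embedded skin of B6/129 females. The sources used here give no ages, no number of animals behind a section and no Cre status of the control. With 1 section a group, the genotypes cannot be tested against each other, and genotype, animal, slide and place of sampling cannot be told apart. Both sections held 4 separate strips of tissue, numbered here from 1 to 4 by their position on the slide. Strips of a section are not replicates, and the same number in the other section does not mean the same piece of skin. All intervals are exact 95% intervals that cover counting error only.

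Igfbp3 is a secreted protein that binds insulin-like growth factors and holds them away from their receptor. Asporin, the product of Aspn, is a small leucine-rich proteoglycan that binds collagen, and thrombospondin 2, the product of Thbs2, is a matricellular glycoprotein that acts in collagen fibril assembly. Dermal fibroblasts differ by depth: papillary cells lie under the epidermis, reticular cells lie deeper, and the dermal papilla and dermal sheath surround the hair follicle.

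Of the cells in the sections, 33263 in WT and 37395 in Utx-cKO held at least 20 transcripts, with a median of 62 and 48. The fibroblast gate held 7506 and 6386 cells. The rich cells held 243491 and 162507 gene transcripts, with a median of 93 and 65 per cell against 65 and 48 in other fibroblasts, and the sum that defines them is easier to reach in deeper cells. The 20 negative control probes gave 21 and 19 transcripts in all rich cells, and no single control probe gave more than 8. The sections shared 2 cell identifiers, each taken as separate cells.

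The rule chose the cells on Igfbp3, Aspn and Thbs2, so their levels describe the choice. Igfbp3 supplied most of the sum. It averaged 3.71, 4.69, 5.48 and 3.17 transcripts per rich cell in WT strips 1 to 4, and 3.96, 2.95, 5.43 and 4.29 in Utx-cKO strips 1 to 4. Strip 3 was the highest in both sections, and the sections overlapped. Over whole sections the mean was 4.76 in WT and 4.99 in Utx-cKO, against 0.54 and 0.53 in other fibroblasts, and single rich cells reached 50 and 53. Rich cells held 45.9% of all Igfbp3 transcripts found in WT cells and 46.7% in Utx-cKO. Keratin-rich cells, those with at least 3 transcripts of Krt5, Krt15 and Col17a1, held another 18.7% and 9.53%.

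Aspn averaged 1.40, 0.80, 1.88 and 1.00 transcripts per rich cell in WT strips 1 to 4, and 1.13, 1.17, 1.43 and 0.59 in Utx-cKO strips 1 to 4. Its section means were 1.61 and 1.26, against 0.53 and 0.36 in other fibroblasts. Thbs2 followed another order, with 1.06, 0.35, 0.70 and 1.39 in the WT strips and 0.97, 1.02, 0.57 and 1.43 in the Utx-cKO strips. Thbs2 was thus highest in strip 4 of both sections, where Aspn was low, and the strip means of the sections overlapped for both genes. The rule selects on these genes and the sections differ in depth, so these means do not compare the genotypes.

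**Figure D1:**
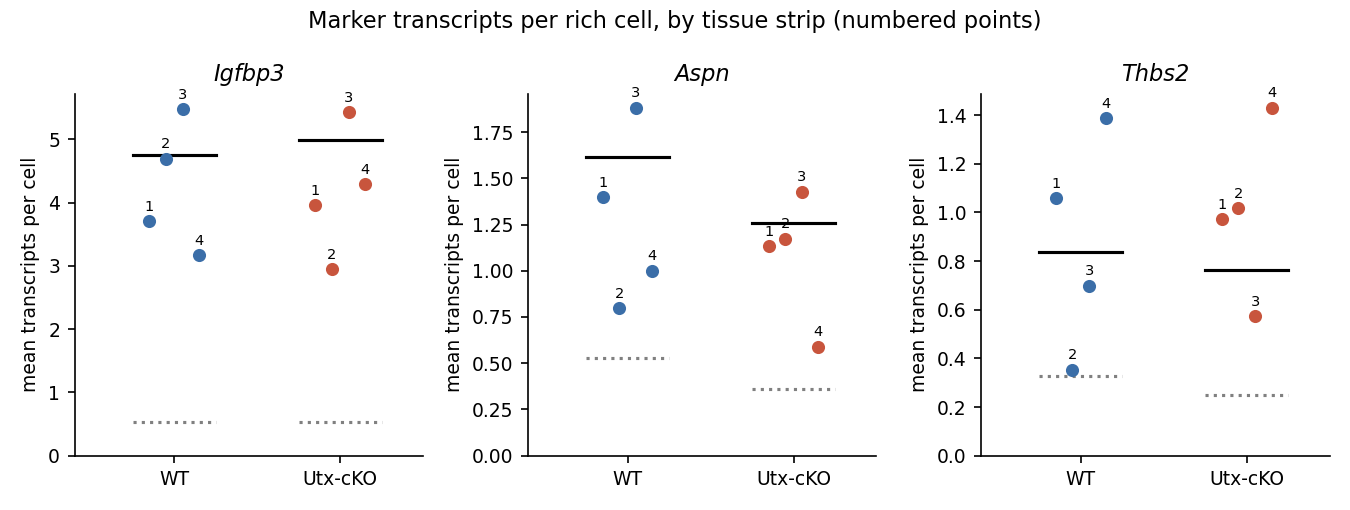
Mean transcripts per rich cell (vertical axis) of Igfbp3, Aspn and Thbs2 in each numbered tissue strip of the WT and Utx-cKO sections; the black line is the mean over all rich cells of the section and the grey dotted line the mean over other fibroblasts. Igfbp3 was highest in strip 3 of both sections, at 5.48 and 5.43, and Thbs2 in strip 4, at 1.39 and 1.43.

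All 3 markers were present in 28.5% of rich cells in WT and 24.03% in Utx-cKO, 2 of them in 50.7% and 52.7%, and 1 alone in 20.8% and 23.3%. Igfbp3 made up the majority of the sum in 66.2% and 74.5% of cells, Aspn in 12.6% and 7.996%, and Thbs2 in 5.92% and 5.36%. Cells with a Thbs2 majority were spread unevenly over the strips. WT strips 1 to 4 held 64, 4, 17 and 52 of them, and Utx-cKO strips 1 to 4 held 19, 23, 12 and 64, so that the largest strip, strip 3, held few. The sum had a median of 6 in both sections. At its lower edge stood 434 WT and 401 Utx-cKO rich cells with a sum of exactly 3, whose median depth was 70.5 and 50 transcripts. Just outside it were 492 and 456 cells that had a sum of 2 as their highest sum, with a median depth of 61 and 48. A further 801 and 416 fibroblasts reached 3 without this sum being the highest.

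Genes that the rule did not use were read beside keratin-rich cells, which the rule leaves out. Other stromal cells were not compared, so these values do not check the fibroblast label against them. The levels below are counts per 1000000 counts (CPM) over the 463 panel genes outside the rule, so that the selected genes do not displace the rest. The 3 collagen VI chains were higher in rich cells than in other fibroblasts in all 8 strips, by 0.26 (Col6a1), 0.33 (Col6a2) and 0.36 (Col6a3) on the log2 scale in WT and by 0.24, 0.28 and 0.19 in Utx-cKO. This did not always hold against fibroblasts whose highest sum was a competing one. In WT, Col6a1 averaged 2.31 transcripts per rich cell, against 1.79 where the Mfap4 sum led and 2.12 where the Sfrp2 sum led. Col6a2 had 3.50 against 2.65 and 2.92, and Col6a3 2.32 against 1.44 and 2.37. In Utx-cKO the values were 1.73 against 1.64 and 1.92, 2.42 against 2.42 and 2.12, and 1.70 against 1.75 and 1.59. At least 1 transcript of Col6a2 was found in 87.3% and 79.8% of rich cells and in 14.7% and 11.9% of keratin-rich cells, whose median depth was 73 and 60. Vim, the mesenchymal intermediate filament gene, was found in 95.3% and 88.9% of rich cells and in 33.0% and 27.8% of keratin-rich cells. Krt17, a keratinocyte keratin outside the rule, was found in 1.33% and 1.73% of rich cells against 53.1% and 58.1% of keratin-rich cells.

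Rich cells made up 31.1% (30.0 to 32.1) of fibroblasts in WT and 34.5% (33.3 to 35.6) in Utx-cKO. The strips of a section differed more than the sections did. In WT strips 1 to 4 the share was 24.98%, 21.3%, 39.7% and 21.7%. In Utx-cKO strips 1 to 4 it was 20.9%, 11.5%, 45.6% and 34.8%. The ranges overlapped, and strip 3, the largest, held 59.1% of the WT rich cells and 70.1% of the Utx-cKO rich cells. With strip 3 of both sections left out, an alternative chosen after seeing the data, the order turned, to 23.6% in WT and 21.9% in Utx-cKO. Leaving out Utx-cKO strip 3 alone turned it too, with 21.9% against 31.1% in WT.

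Depth moved with these shares. When each cell was thinned to 40 transcripts, which left out 8845 shallower cells in WT and 14029 in Utx-cKO, rich cells were 20.5% (19.3 to 21.7) of fibroblasts in WT and 31.5% (29.9 to 33.1) in Utx-cKO. The thinned strip values still overlapped. They were 12.2%, 21.0%, 27.1% and 16.6% in WT strips 1 to 4 and 13.97%, 10.0%, 40.5% and 32.5% in Utx-cKO strips 1 to 4. As a share of all cells with at least 20 transcripts, rich cells were 7.01% and 5.89%.

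**Figure D2:**
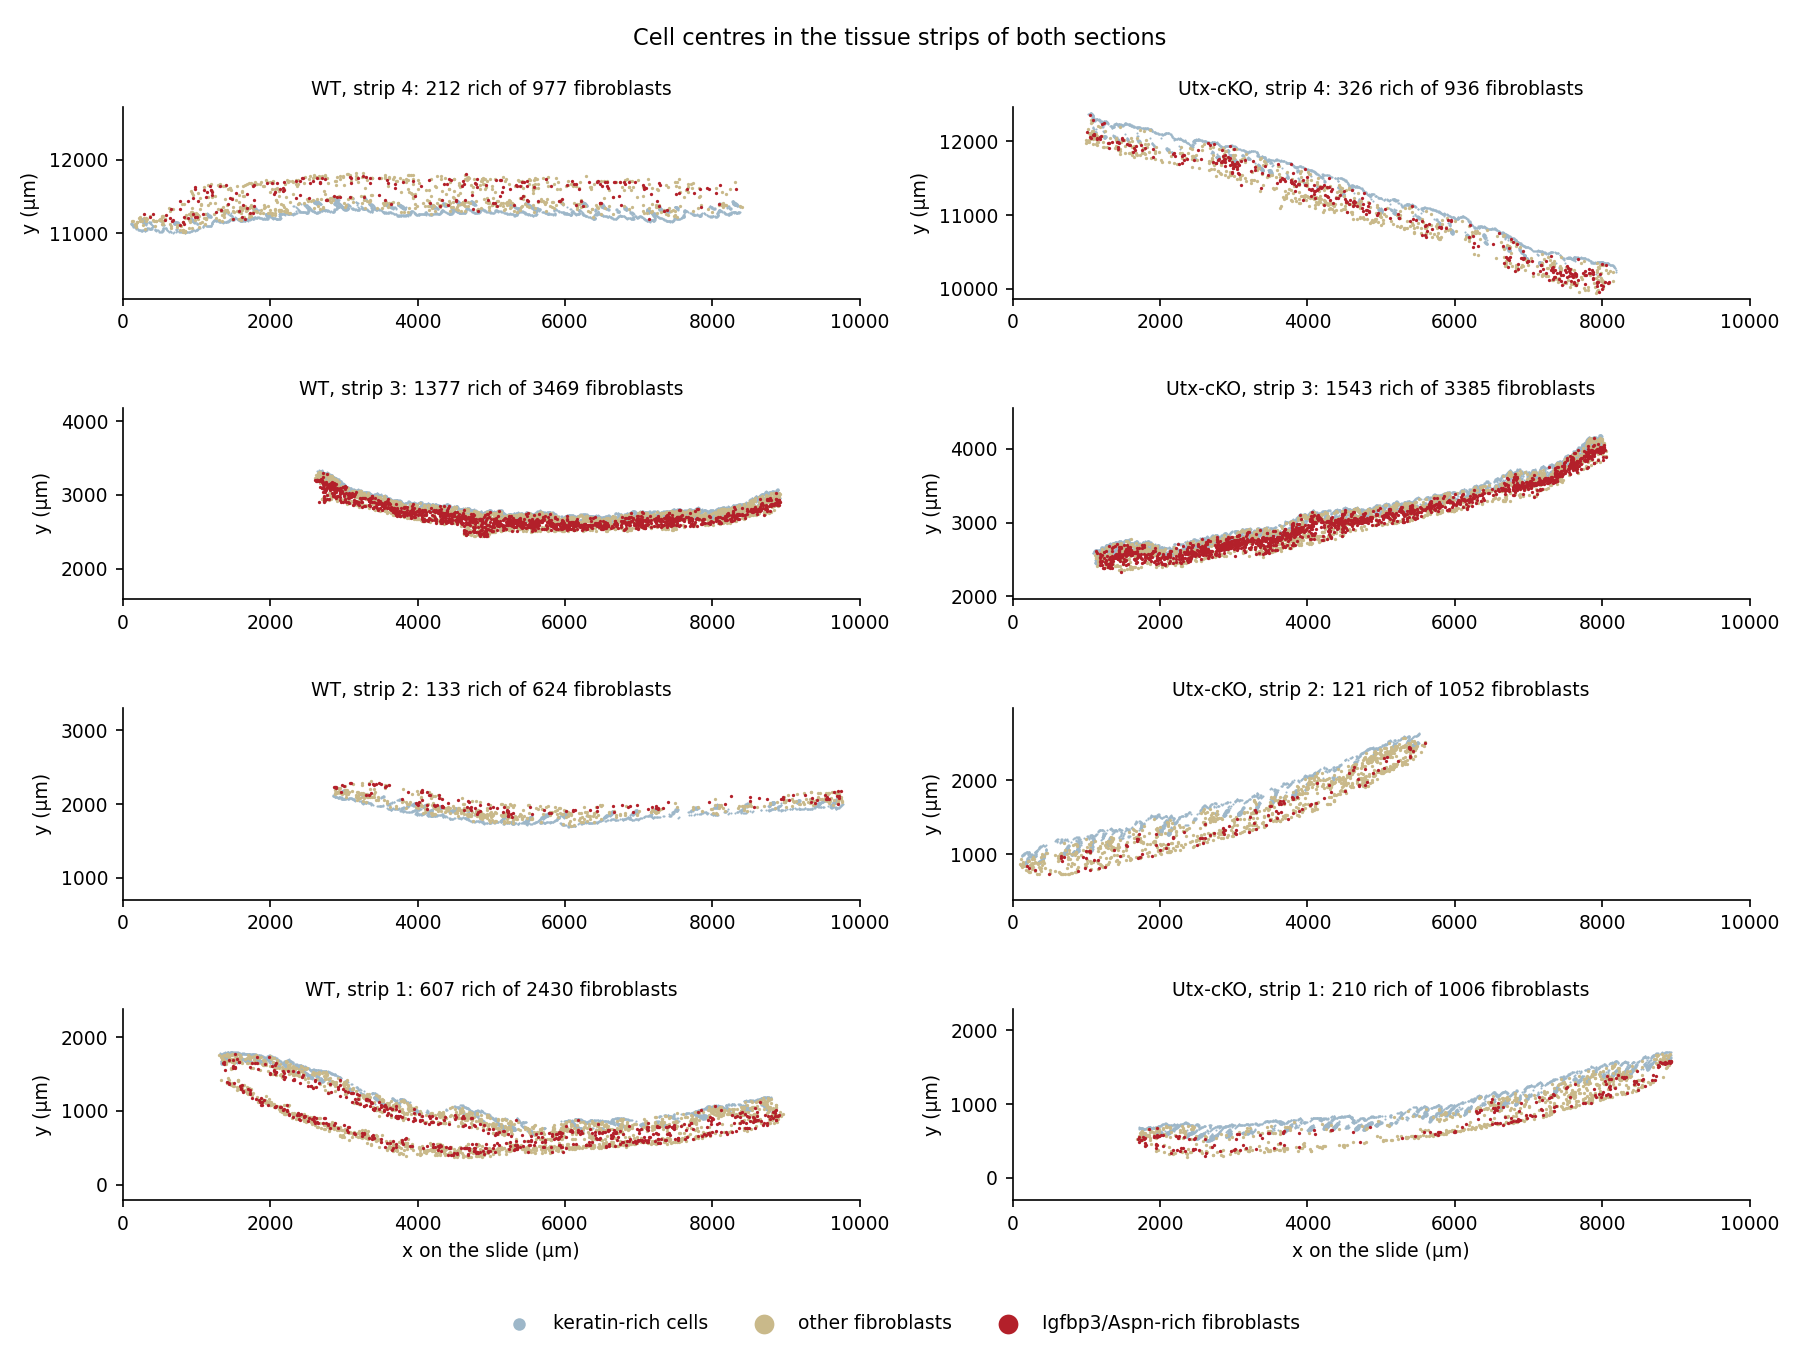
Positions of cell centres in µm (horizontal and vertical axes) in the 4 tissue strips of the WT section (left) and the Utx-cKO section (right); red points are rich cells, tan points other fibroblasts and blue points keratin-rich cells. Strip 3 holds 1377 of the rich cells in WT and 1543 in Utx-cKO, at a median distance of 42.2 µm and 37.1 µm from the nearest keratin-rich cell.

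In distance to keratin-rich cells, rich cells lay between the other marker-defined fibroblast sets. Depth in the dermis was not measured by this. The median distance of rich cells to the nearest keratin-rich cell was 63.2 µm (60.1 to 66.3) in WT and 45.5 µm (43.2 to 48.5) in Utx-cKO. For other fibroblasts as a whole, 5175 cells in WT and 4185 in Utx-cKO, it was 39.8 µm and 44.4 µm. Most of them belonged to neither of the following sets. Fibroblasts rich in Mfap4 and Igfbp2, which met the same gate with the first competing sum highest, lay closer, at 17.7 µm and 14.3 µm (1453 and 799 cells). Fibroblasts rich in Sfrp2 and Aldh1a3, with the other competing sum highest, lay farther, at 245 µm and 196 µm (554 and 393 cells). This order, with rich cells between the other sets, was the same in each of the 8 strips.

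The distance depended on the strip. In WT strips 1 to 4 the median for rich cells was 144, 72.7, 42.2 and 223 µm, against 96.3, 38.8, 20.1 and 85.5 µm for other fibroblasts. In Utx-cKO strips 1 to 4 it was 107, 124, 37.1 and 70.6 µm, against 83.9, 82.2, 20.1 and 90.7 µm. Rich cells thus lay farther from keratin-rich cells than other fibroblasts in 7 of 8 strips, and nearer in strip 4 of Utx-cKO. The lower section median in Utx-cKO did not stand for lower values in every strip. With strip 3 of both sections left out the medians were 135 µm in WT and 85.2 µm in Utx-cKO.

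Measured from granular keratinocytes, the outermost living layer of the epidermis, the pooled share of rich cells among fibroblasts peaked at an intermediate distance. In WT it was 21.4% within 100 µm, 43.3% from 100 to 200 µm, 34.2% from 200 to 400 µm and 25.7% beyond. In Utx-cKO it was 26.9%, 46.7%, 28.2% and 12.5%. The peak differed by strip. In WT strips 1, 2 and 4 the share was highest from 200 to 400 µm, at 35.4%, 42.7% and 30.4%. Utx-cKO strip 2 was also highest there, at 15.4%. Strip 3 of both sections was highest from 100 to 200 µm, at 60.4% and 62.0%, as were Utx-cKO strips 1 and 4. No fibroblast of WT strip 2 lay beyond 400 µm. Every strip had its lowest or second lowest share in the bin nearest to the epidermis. Within 100 µm the share was 7.82%, 4.56%, 28.2% and 6.79% in WT strips 1 to 4 and 2.29%, 0%, 31.4% and 30.0% in Utx-cKO strips 1 to 4. The 0% rests on 120 fibroblasts of Utx-cKO strip 2, which allow a share of up to 3.03%.

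**Figure D3:**
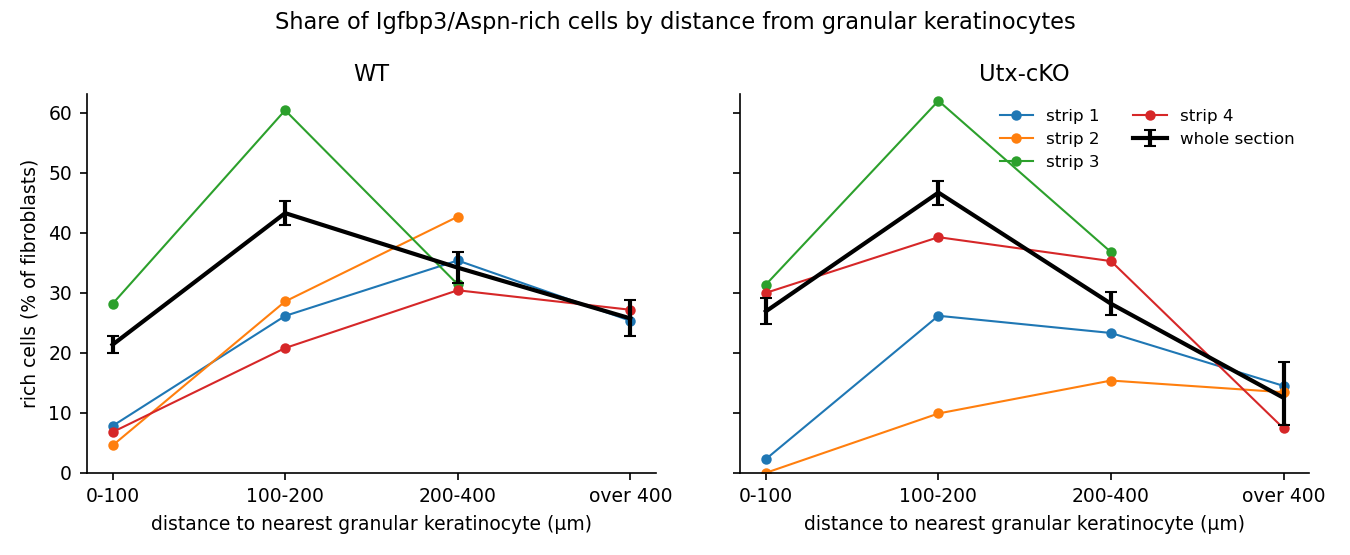
Share of rich cells among fibroblasts in percent (vertical axis) by distance to the nearest granular keratinocyte in µm (horizontal axis), for WT (left) and Utx-cKO (right); thin lines are tissue strips and the black line the whole section with its exact 95% interval. Pooled over each section, the share was highest between 100 and 200 µm, at 43.3% and 46.7%. In WT strips 1, 2 and 4 and in Utx-cKO strip 2 it was highest between 200 and 400 µm.

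Rich cells had more rich cells around them than other fibroblasts had, and lay nearer to vessels. Among the 10 nearest cells, 22.2% in WT and 20.01% in Utx-cKO were also rich cells, against 9.89% and 8.15% around other fibroblasts. In WT strips 1 to 4 the values were 14.1%, 8.12%, 29.6% and 5.99%, against 8.31%, 3.99%, 14.4% and 5.03%. In Utx-cKO strips 1 to 4 they were 9.81%, 5.54%, 24.2% and 11.99%, against 5.70%, 3.11%, 12.4% and 6.197%. The share was thus higher around rich cells in all 8 strips, by little in WT strip 4, and strip 3 raised the pooled values. Keratin-rich cells were 7.09% and 8.66% of these neighbours, against 16.9% and 15.8%. The median distance to the nearest cell with at least 3 endothelial and mural marker transcripts was 31.0 µm in WT and 32.1 µm in Utx-cKO, against 46.3 µm and 50.2 µm for other fibroblasts. Rich cells were nearer to such a cell in all 8 strips. They were also nearer to cells, outside the keratin-rich ones, with at least 10 transcripts of the lipid synthesis genes Scd1 and Fasn. The medians were 38.4 µm and 44.5 µm against 58.3 µm and 64.2 µm. This held in every strip but Utx-cKO strip 1, where the distances were 151 µm and 129 µm. Fibroblasts rich in Mfap4 and Igfbp2 lay at 48.9 µm in WT and, as near as rich cells, at 44.2 µm in Utx-cKO. In Utx-cKO strips 1 and 2 they lay nearer than rich cells, at 70.0 µm and 44.3 µm against 151 µm and 54.7 µm.

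Against other fibroblasts, rich cells had higher levels of a few genes: the Wnt effector Lef1, the matricellular protein gene Postn, the chemokine gene Cxcl12, and Fasn, Cat and Mitf. Postn was lower than in fibroblasts rich in Sfrp2 and Aldh1a3. Mitf did not reach 1.5-fold in both sections against those or against fibroblasts rich in Mfap4 and Igfbp2. Lef1 had too few transcripts for either comparison. All values are pooled over the cells of a section, and a gene is counted where it differed at least 1.5-fold the same way in both sections and had at least 100 transcripts in each comparison. Of 300 genes compared, 6 (2.00%) were higher and 28 (9.33%) lower, and the median gene stood at -0.11 in WT and -0.13 in Utx-cKO on the log2 scale. Since the cells were chosen from the same transcripts, this is a description with no test. With mean transcripts per cell in place of CPM, which keeps the greater depth of rich cells, 20 genes were higher and 11 lower. With Utx-cKO strip 3 left out none of the 191 genes then compared was higher in both sections and 6 were lower, and with WT strip 3 left out 3 of 232 were higher and 9 lower.

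Lef1, a transcription factor of the Wnt pathway expressed in the dermal papilla and in hair follicle epithelium, differed most among the higher genes. It stood at 382 CPM in rich cells and 121 CPM in other fibroblasts of WT, and at 1014 and 275 CPM in Utx-cKO. The log2 ratio was 1.67 (1.10 to 2.25) in WT and 1.89 (1.41 to 2.38) in Utx-cKO, from 77 and 129 transcripts in rich cells. It was positive in all 8 strips, from 0.64 to 3.97 with 0.5 transcripts added to each strip count. Without WT strip 3 the WT ratio was 2.63.

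Few rich cells accounted for Lef1. These cells were set apart after the values were seen, and are described without a test. At least 1 Lef1 transcript was found in 50 rich cells in WT, or 2.14% (1.60 to 2.82), and in 72 in Utx-cKO, or 3.27% (2.57 to 4.10). The share was 0.754% and 1.12% among other fibroblasts and 1.61% and 1.73% among keratin-rich cells. The Lef1-positive rich cells lay close to keratin-rich cells, at a median of 13.5 µm and 20.7 µm, against 64.0 µm and 46.6 µm for Lef1-negative rich cells. Lef1-positive other fibroblasts lay as near, at 17.4 µm and 21.1 µm. The Lef1-positive rich cells were also deep in transcripts, with a median of 135 and 96 against 93 and 65.

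Lef1-positive rich cells carried high counts of some other genes, again chosen after their values were seen. Igfbp3, a marker of the rule, averaged 13.0 and 10.97 transcripts in them, against 4.58 and 4.78 in Lef1-negative rich cells. The Wnt inhibitor gene Apcdd1, which counts against membership in the rule, averaged 3.80 and 2.81 against 0.34 and 0.36. A cell high in Apcdd1 is a rich cell only if its marker sum is higher still, so the rule sets part of the Igfbp3 level. In Lef1-positive other fibroblasts Igfbp3 averaged 0.59 in WT and 0.55 in Utx-cKO, and Apcdd1 0.87 and 0.96. Inhba, which encodes an activin subunit and is expressed in the dermal papilla, averaged 0.34 and 0.44 against 0.02 and 0.03. The transcription factor gene Tfap2a averaged 0.36 and 1.07 against 0.01 and 0.02. Thbs2, a marker of the rule, was lower in them, at 0.44 and 0.51 against 0.84 and 0.77. Transcripts of 22 keratinocyte markers were 1.74% and 2.61% of their total, against 1.06% and 1.14% in Lef1-negative rich cells and 2.29% and 2.49% in Lef1-positive other fibroblasts, and the part of these in the Lef1 values was not tested. Of the listed dermal papilla and dermal sheath genes 3 were on the panel, Lef1, Inhba and Ptgds, too few to name the cells.

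Postn encodes periostin, a matrix protein that binds collagen and integrins. Its level was 39406 CPM in rich cells and 22966 CPM in other fibroblasts of WT, and 40170 and 25088 CPM in Utx-cKO. The log2 ratio was 0.78 (0.73 to 0.82) and 0.68 (0.62 to 0.74), and it was positive in all 8 strips, from 0.20 to 0.82. Without strip 3 of Utx-cKO the ratio there was 0.25. Postn stood higher in fibroblasts rich in Sfrp2 and Aldh1a3, at 49341 CPM in WT and 63204 CPM in Utx-cKO. Cxcl12, a chemokine made by stromal cells, had ratios of 0.84 (0.71 to 0.97) and 0.71 (0.55 to 0.87) and was higher in 7 of 8 strips. Without Utx-cKO strip 3 its ratio there was 0.53, and without Utx-cKO strip 4 it was 0.58.

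The ratios of Fasn, Cat and Mitf moved with strip 3. Fasn, the fatty acid synthase gene, had ratios of 0.93 and 0.70 and was higher in 6 of 8 strips, but stood at -0.21 in Utx-cKO without strip 3. Cat, the catalase gene, had ratios of 0.95 and 0.64, and leaving out strip 3 of the section gave 0.30 in WT and 0.07 in Utx-cKO. Mitf, a transcription factor gene best known from melanocytes, had ratios of 0.65 and 0.69 and was higher in 7 of 8 strips. Without WT strip 3 the Mitf ratio was 0.39, and without Utx-cKO strip 3 it was 0.51. Against fibroblasts rich in Mfap4 and Igfbp2 the Mitf ratios were 0.46 in WT and 0.84 in Utx-cKO. Against those rich in Sfrp2 and Aldh1a3 they were 0.67 and 0.47. The summed level of 4 melanocyte markers, Mitf included, was 4415 CPM in rich cells and 2807 CPM in other fibroblasts of WT, and 4081 and 2865 CPM in Utx-cKO. Mitf alone supplied most of it, with 3670 and 2337 CPM in WT and 3365 and 2088 CPM in Utx-cKO. Counted over the nucleus alone, the Utx-cKO ratios were 0.54 for Postn, 0.27 for Cxcl12, 0.26 for Fasn, 0.25 for Cat and 0.28 for Mitf, and the WT ratio of Fasn was 0.32.

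A broader set of genes was higher in rich cells in every strip, at 11 of the 300 compared (3.67%). Beside Lef1, Postn and the collagen VI chains it held Itm2a, at 0.74 and 0.56, and the secreted Wnt antagonist gene Sfrp1, at 1.07 in WT and 0.21 in Utx-cKO. The remaining members were Cpt2, a mitochondrial fatty acid oxidation enzyme gene, at 0.37 and 0.47, and Cers5, Pebp1 and Pik3ca, at 0.11 to 0.42.

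**Figure D4:**
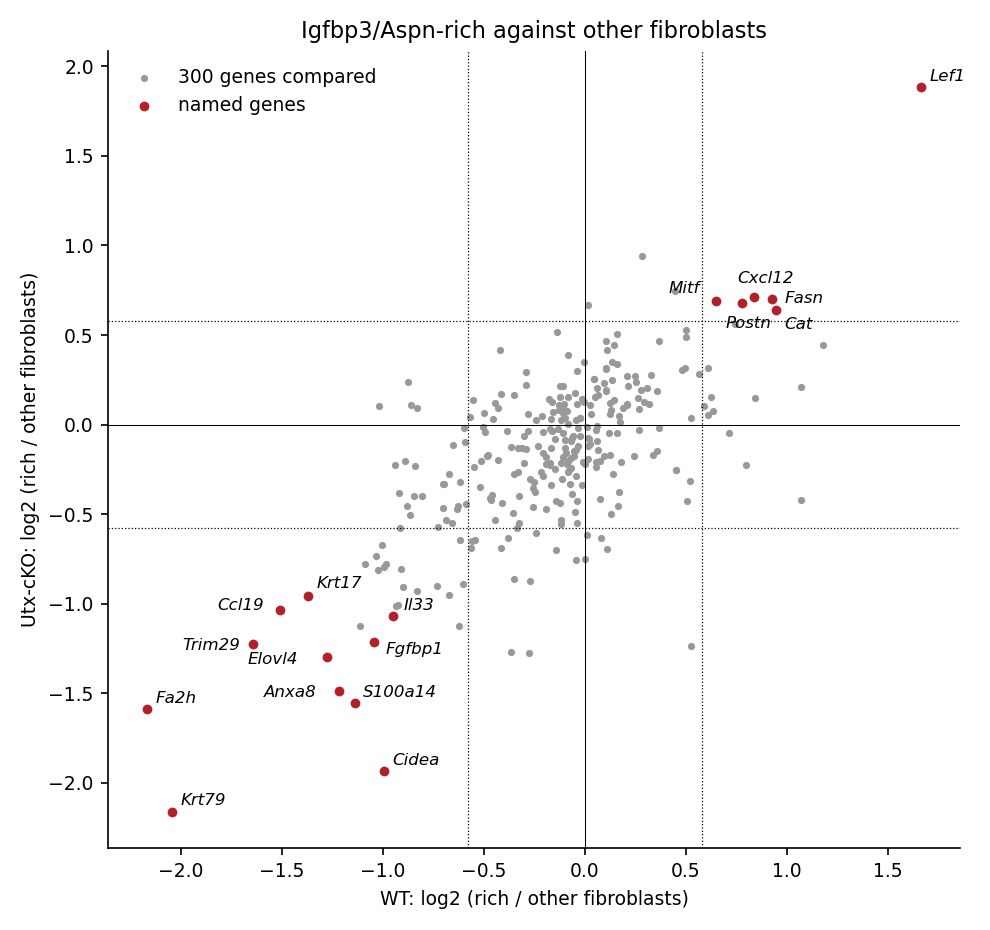
Log2 ratio of the CPM level in rich cells to that in other fibroblasts for 300 genes, WT on the horizontal axis and Utx-cKO on the vertical axis; red points are named genes and dotted lines mark 1.5-fold. Lef1 stands apart at 1.67 and 1.89, and the named lower genes reach -2.17 in WT and -2.16 in Utx-cKO.

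The lowest genes in rich cells were mostly those of epidermis, hair follicle and sebaceous gland. Krt79, a keratin of the follicle's upper part, stood at -2.04 (-2.72 to -1.42) in WT and -2.16 (-2.85 to -1.54) in Utx-cKO, from 24 transcripts in the rich cells of each section. Fa2h, a fatty acid hydroxylase gene, stood at -2.17 and -1.59, and Cidea, a lipid droplet gene of sebocytes, at -0.99 and -1.93. The epithelial genes Trim29, S100a14, Fgfbp1 and Krt17 stood between -1.64 and -0.96 in the sections. All of these genes had too few transcripts to be compared with fibroblasts rich in Sfrp2 and Aldh1a3. Without WT strip 3 the WT ratio was -0.59 for Krt79, -0.50 for Fa2h, -0.52 for Trim29, -0.21 for Fgfbp1 and 0.24 for Cidea. Without Utx-cKO strip 3 the Utx-cKO ratio was -0.53 for Trim29 and -0.13 for Krt17. Other fibroblasts lay nearer to keratin-rich cells and had more of them as neighbours, as given above, and the part of this in the lower values was not tested. Over the nucleus alone the WT ratio was 0.030 for S100a14, -0.027 for Krt17 and -0.29 for Cidea, and the Utx-cKO ratio was -0.28 for Fgfbp1 and 0.12 for Krt17.

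By list, 2 of 3 hair follicle markers compared were lower (Krt79 and Krt17), as were 1 of 3 basal markers (Itga6), 1 of 3 suprabasal markers (Krt77) and none of 2 granular markers, against 9.33% of all genes compared. Of 6 sebocyte markers, 3 were lower (Elovl3, Elovl6 and Cidea) and Fasn was higher, against 2.00% higher over all genes compared. The summed level of the sebocyte markers was nevertheless 27671 CPM in rich cells and 17220 CPM in other fibroblasts of WT, and 17274 and 16644 CPM in Utx-cKO, since Scd1 and Fasn supply most of it.

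Elovl4, Ccl19, Anxa8 and Il33 were also among the 12 lowest genes. Elovl4, an enzyme gene for very long chain fatty acids, stood at -1.28 (-1.69 to -0.88) and -1.30 (-1.67 to -0.94), below other fibroblasts in all 8 strips, with -0.45 in WT when strip 3 was left out. Over the nucleus alone it was -0.28 and 0.21. Ccl19, a chemokine that attracts cells bearing CCR7, stood at -1.51 (-1.71 to -1.30) and -1.03 (-1.26 to -0.81), also in all 8 strips, from -2.28 to -0.39. Anxa8, an annexin gene, stood at -1.22 and -1.49. Il33, an alarmin of the interleukin 1 family, stood at -0.95 and -1.07 and was lower in 7 of 8 strips, with -0.55 in Utx-cKO when strip 3 was left out. These genes were not low against every fibroblast set. Against fibroblasts rich in Sfrp2 and Aldh1a3, Ccl19 stood at 1.31 in WT and 0.42 in Utx-cKO, and Elovl4 and Anxa8 had too few transcripts to compare. Against fibroblasts rich in Mfap4 and Igfbp2, Il33 stood at 0.91 in WT and 0.55 in Utx-cKO.

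In every strip, 28 genes (9.33%) were lower in rich cells. The ones named here were chosen after their values were seen. The MHC class I heavy chain genes H2-K1 and H2-D1 stood at -0.69 and -0.62 in WT and -0.33 and -0.32 in Utx-cKO. The immunoproteasome subunit gene Psmb8 stood at -0.92 and -0.38, the peptide transporter gene Tap1 at -0.91 and -0.58, and their activator Nlrc5 at -1.01 and -0.67. Rich cells were uneven in these genes. In cells with a Thbs2 majority H2-K1 averaged 2.17 transcripts in WT and 1.89 in Utx-cKO, against 1.41 and 1.14 with an Igfbp3 majority. Nlrc5 averaged 0.17 and 0.22 against 0.10 and 0.06. Igfbp5, another binding protein for insulin-like growth factors and not used by the rule, was lower as well, at -0.67 and -0.28. So were the growth factor gene Ptn, at -0.52 and -0.35, the cell cycle gene Ccnd1, at -0.88 and -0.46, and Thy1, a surface marker of fibroblasts and T cells, at -0.47 and -0.42.

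Set against the fibroblasts rich in Mfap4 and Igfbp2, 24 of 217 genes (11.1%) were higher in rich cells and 15 (6.91%) lower. Cxcl12 was higher by 2.00 and 2.22, the transcription factor gene Irf4 by 2.57 and 1.95, Postn by 2.23 and 1.78, and Sfrp1 by 1.64 and 1.34 on the log2 scale. Anxa8 stood at -2.16 and -2.26, Elovl4 at -2.15 and -2.18, and Ccl19 at -2.42 and -1.85.

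Set against the fibroblasts rich in Sfrp2 and Aldh1a3, 43 of 202 genes (21.3%) were higher and 19 (9.41%) lower. Among the higher were several genes of vessels, with Plvap at 2.78 and 3.26, Myh11 at 4.01 and 2.77, Rgs5 at 2.59 and 2.05 and Cdh5 at 3.68 and 1.73. The rich cells also lay nearer to cells with vessel markers, at 31.0 µm and 32.1 µm against 63.6 µm and 65.9 µm, and the part of this in the values was not tested. Among the lower were Akr1c18, a steroid-metabolising enzyme gene, at -2.05 and -2.60, Il33 at -2.36 and -2.14, and Fn1, the fibronectin gene, at -1.13 and -1.57. Postn, higher in rich cells than in the fibroblasts rich in Mfap4 and Igfbp2, stood at -0.32 and -0.65 against those rich in Sfrp2 and Aldh1a3.

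Kdm6a itself, which encodes the histone H3 lysine 27 demethylase deleted in the study, had a ratio of Utx-cKO to WT in rich cells whose sign depended on the measure. It stood at 2332, 3617, 3432 and 2440 CPM in WT strips 1 to 4 and at 2157, 3257, 3282 and 3215 CPM in Utx-cKO strips 1 to 4. The sections overlapped, and the log2 ratio of Utx-cKO to WT was 0.06 (-0.13 to 0.24), against -0.18 in other fibroblasts. Over the nucleus alone it was -0.34 (-0.66 to -0.03), and as mean transcripts per cell, which keeps the lower depth of the Utx-cKO cells, -0.52 (-0.71 to -0.34). In keratin-rich cells, where Krt14-Cre acts, Kdm6a averaged 0.254 transcripts per cell in WT and 0.184 in Utx-cKO, against 0.262 and 0.183 in rich cells, at a median depth of 73 and 60 in keratin-rich cells and 93 and 65 in rich cells. The sources used here do not say whether its probes lie in the deleted part. Of 9 chromatin regulator genes compared in rich cells, Kdm6b among them at 0.44 (0.23 to 0.64), none differed 1.5-fold.

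Between the sections, rich cells of Utx-cKO had higher levels of the aryl hydrocarbon receptor gene Ahr, of Tfap2a, Crabp2, Lef1 and Tnc, and lower levels of the lipid metabolism genes Acsl1 and Scd1. Ptgs2 was lower as well, but through WT strip 3, without which its log2 ratio was 0.50. Of 265 genes compared, 31 (11.7%) were at least 1.5-fold higher and 28 (10.6%) lower in Utx-cKO, with a median of 0.08 on the log2 scale. With mean transcripts per cell 6 were higher and 106 lower. In other fibroblasts 52 of 354 genes (14.7%) were higher and 14 (3.95%) lower, with a median of 0.15. Rich cells and other fibroblasts shared 15 of the higher and 8 of the lower genes. The direction seldom held strip by strip. The lowest Utx-cKO strip exceeded the highest WT strip in 5 genes (1.89%), and the reverse held in 1 (0.377%). With 4 strips a section, some genes can separate in this way under any labelling of the strips. Whether these shares exceed that was not tested.

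Ahr, a ligand-activated transcription factor that senses aromatic compounds, was among the 5. It stood at 607, 556, 761 and 534 CPM in WT strips 1 to 4 and at 959, 1140, 2081 and 2559 CPM in Utx-cKO strips 1 to 4. The log2 ratio was 1.52 (1.22 to 1.83), and it ranged from 1.31 to 1.75 when any single strip was left out. With the 4 strips weighted equally it was 1.45, and without strip 3 of both sections 1.53. As mean transcripts per cell, which keeps the lower depth of the Utx-cKO cells, it was 0.94 (0.64 to 1.25). In other fibroblasts the ratio was 0.40, and the difference from rich cells was not tested.

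Ccnd1, the cyclin D1 gene, and Marcksl1, a gene for an actin-binding protein, also had all Utx-cKO strips above all WT strips in CPM. Neither was followed through the alternative settings, mean transcripts per cell among them. Ccnd1 stood at 1102, 974, 795 and 686 CPM in WT and 1598, 1466, 1426 and 1509 CPM in Utx-cKO, with a ratio of 0.71 (0.41 to 1.02). Marcksl1 stood at 863, 696, 685 and 534 CPM in WT and 1358, 1303, 1201 and 1312 CPM in Utx-cKO, a ratio of 0.76 (0.42 to 1.09). The remaining genes of this kind differed by less than 1.5-fold: the integrin gene Itgb1 at 0.10, the histone methyltransferase gene Kmt2d at 0.39 and, below WT, the superoxide dismutase gene Sod1 at -0.47.

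Tfap2a had the largest ratio, 2.13 (1.60 to 2.68), from 41 transcripts in WT and 113 in Utx-cKO, but its strips overlapped. It stood at 95.8, 2504, 110 and 305 CPM in WT strips 1 to 4 and at 399, 1791, 987 and 328 CPM in Utx-cKO strips 1 to 4. WT strip 2, with 133 rich cells, was the highest of all. With the strips weighted equally the ratio was 0.22, without WT strip 3 it was 1.40 and without WT strip 2 it was 2.91. In cells thinned to 20 transcripts it was 0.75 (-0.50 to 2.06). Lef1-positive rich cells held 18 of the 41 Tfap2a transcripts in WT and 77 of the 113 in Utx-cKO.

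Crabp2, a retinoic acid binding protein gene, had a ratio of 1.57 (0.99 to 2.17), which fell to 0.45 without Utx-cKO strip 3. Its strip values were 112, 278, 237 and 152 CPM in WT and 240, 163, 686 and 328 CPM in Utx-cKO. Lef1-positive rich cells held 5 of its 39 transcripts in WT and 34 of its 73 in Utx-cKO. Rarg, the retinoic acid receptor gamma gene, stood at 0.85, and of 4 retinoid genes compared 2 were higher and Dhrs9, a retinol dehydrogenase gene, was lower, against 11.7% higher and 10.6% lower over all genes compared. Lef1 had a ratio of 1.41 (0.99 to 1.83), 0.65 with strips weighted equally, 0.09 in cells thinned to 20 transcripts, and 1.19 in other fibroblasts. Inhba had a ratio of 1.13 (0.65 to 1.63), which was 0.55 as mean transcripts per cell and 0.40 over the nucleus alone. Lef1-positive rich cells held 17 of its 62 transcripts in WT and 32 of its 86 in Utx-cKO.

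Tnc, the gene of the matricellular protein tenascin C, stood at 351, 0, 406 and 1220 CPM in WT strips 1 to 4 and at 3994, 1954, 772 and 525 CPM in Utx-cKO strips 1 to 4. Its ratio was 1.39 (0.99 to 1.79), 0.91 without Utx-cKO strip 1 and 2.27 without Utx-cKO strip 3. Strip 1 held the highest level in Utx-cKO and strip 4 in WT, so the strips overlapped. Myct1, a gene of endothelial cells, had a ratio of 1.18 (0.63 to 1.73). In the list of BMP and TGF-beta genes 3 of 4 were higher, Id2 at 0.83, Smad7 at 0.87 and Inhba, against 11.7% of all genes compared, and Tgfbi stood at 0.50. Their median was 0.85 in rich cells and 0.37 in other fibroblasts, against 0.08 and 0.15 over all genes compared. Their summed level in rich cells was 32121 CPM in WT, from 25320 to 56191 over its strips. In Utx-cKO it was 46373 CPM, from 12213 to 51083, so the highest strip was one of WT and the lowest one of Utx-cKO.

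Dsg1a, Serpinb5 and Elovl4, which the epidermis expresses, were also higher in rich cells of Utx-cKO. By list, none of 3 basal markers compared was higher, with a median of 0.08, as over all genes compared, and 1 of 2 suprabasal markers was, Dsg1a. No granular or hair follicle marker met the count minimum. The desmosomal cadherin gene Dsg1a had a ratio of 1.13 (0.68 to 1.58), the epithelial serpin gene Serpinb5 1.06 (0.47 to 1.66) and Elovl4 0.98 (0.49 to 1.48). As mean transcripts per cell these were 0.55, 0.48 and 0.40, the Serpinb5 ratio was 0.34 over the nucleus alone, and without Utx-cKO strip 3 the Elovl4 ratio was 0.15. Dsg1a was 2.47 without WT strip 3. Sprr2a1 and Sprr2a2, cornified envelope genes with near-identical copies that probes may not tell apart, stood at 0.91 and 0.96. The summed level of suprabasal markers in rich cells was 1589 CPM in WT, from 839 to 1885 over its strips, and 2178 CPM in Utx-cKO, from 1791 to 2362. That of hair follicle markers was 814 CPM, from 591 to 974, and 1274 CPM, from 1140 to 1598. No panel gene of these lists was at 0 in either section, and the part of keratinocyte transcripts in these ratios was not tested.

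Acsl1 and Scd1 were lower in Utx-cKO. Acsl1, which activates long chain fatty acids, stood at 4712, 8765, 12276 and 4880 CPM in WT strips 1 to 4 and at 2556, 6514, 3486 and 2624 CPM in Utx-cKO strips 1 to 4. The ratio was -1.44 (-1.59 to -1.29), and -0.56 without WT strip 3, against -0.70 in other fibroblasts. Scd1, the stearoyl-CoA desaturase gene, stood at 10240, 66500, 17644 and 19366 CPM in WT and at 1358, 20192, 7121 and 5970 CPM in Utx-cKO. Its ratio was -1.29 (-1.39 to -1.18) in rich cells and -0.26 in other fibroblasts. In both genes only the highest Utx-cKO strip, strip 2, reached into the WT range.

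Other genes of metabolism went in both directions. Cat stood at -0.71 (-0.81 to -0.61), Dbi, which binds acyl-CoA, at -0.67 (-0.85 to -0.49) and Ldha, the lactate dehydrogenase gene, at -0.64 (-0.73 to -0.55). Fasn stood at -0.16 (-0.28 to -0.04), with -1.03 when strips were weighted equally. Of 4 sebocyte markers compared 1 was higher and 1 lower, with a median of 0.01. Of 5 glycolysis and hypoxia genes compared, Ldha was lower and Ndufa4l2, a mitochondrial gene induced by hypoxia, was higher at 0.62, with a list median of -0.30. Rich cells lay closer than other fibroblasts to cells high in Scd1 and Fasn in both sections, as given above, and the part of that in these ratios was not tested.

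Ptgs2, Rgcc, Mki67 and Pla2g2d turned direction when 1 strip of WT was left out. Ptgs2, the inducible cyclooxygenase gene, stood at 128, 0, 1361 and 305 CPM in WT strips 1 to 4 and at 160, 163, 193 and 328 CPM in Utx-cKO strips 1 to 4. Its ratio of -2.07 (-2.73 to -1.47) came from WT strip 3 and was 0.50 without that strip. Rgcc, a cell cycle regulator gene, went from -1.54 to 0.26 and Mki67, the proliferation marker, from -0.96 to 2.33 without WT strip 3. Pla2g2d, a secreted phospholipase gene, went from -1.47 to 0.71 without WT strip 1, where it stood at 3019 CPM.

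Il1r2, the decoy receptor gene for interleukin 1, had a ratio of -1.21 (-1.37 to -1.05), and -0.32 without Utx-cKO strip 3. Phlda1 stood at -1.18 and Nmb, the neuromedin B gene, at -1.12, and they moved to -0.39 and -0.49 without Utx-cKO strip 3. C5ar1, the complement C5a receptor gene of myeloid cells, stood at -1.10, at -0.34 without Utx-cKO strip 3 and at 0.99 over the nucleus alone. Of 4 macrophage markers 3 were lower, against 10.6% of all genes compared: C5ar1, C1qa at -0.93 and Stab1 at -0.90, with a list median of -0.92 in rich cells and -0.67 in other fibroblasts. Their summed level in rich cells was 10330 CPM in WT, from 2669 to 15016 over its strips, and 5614 CPM in Utx-cKO, from 4386 to 10037. The part of macrophage transcripts in these ratios was not tested.

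**Figure D5:**
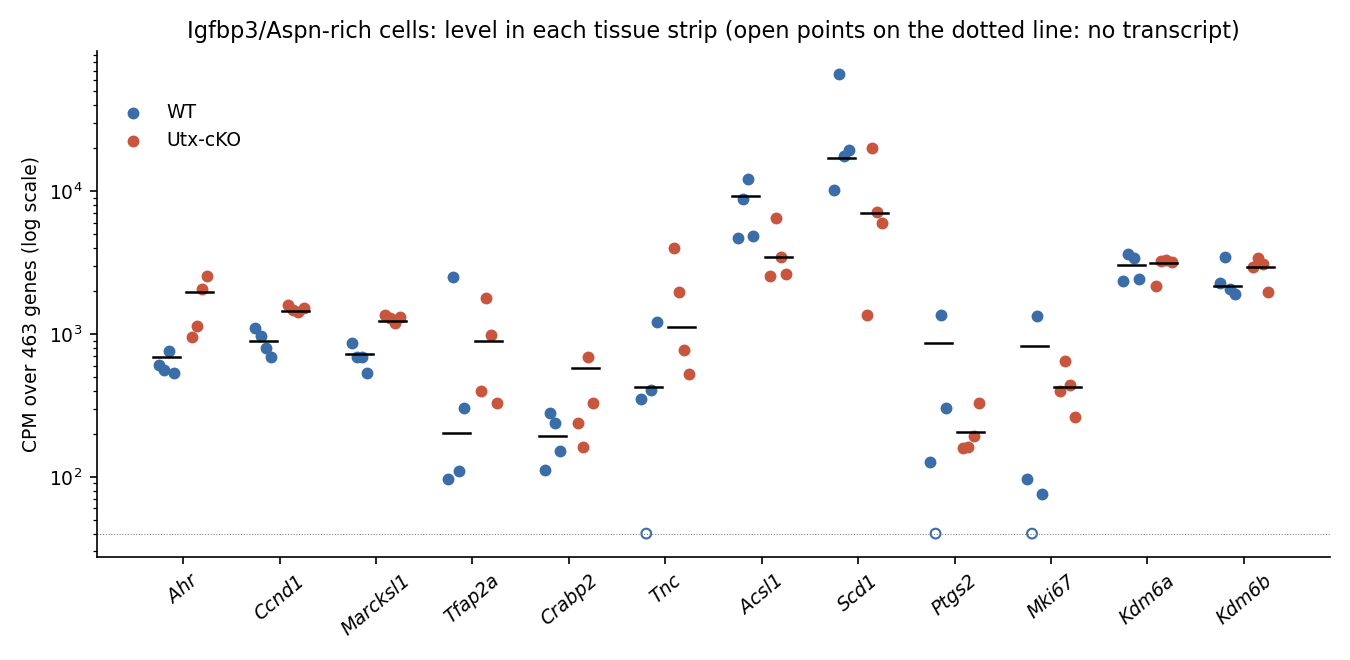
Level in CPM (vertical axis, log scale) of 12 genes in rich cells of each WT and Utx-cKO tissue strip; points are strips, black lines the pooled section level, and open points on the dotted line strips with no transcript. The Utx-cKO strips lie above all WT strips for Ahr, Ccnd1 and Marcksl1 and overlap them for the other 9 genes, Kdm6a among them.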

How the data were processed

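The cell tables deposited by the authors hold transcript counts, positions and areas for each segmented cell, and the deposited transcript tables give each transcript with its gene, cell, position and a quality score. Transcripts of panel genes scoring 20 or more were counted per cell, which equalled the deposited counts in all 40371 and 52308 cells. The sources used here do not name the decoding and segmentation software. Counts were pooled over the cells of a set and divided by the total of the 463 genes outside the rule. Strips are groups of at least 1000 cells whose centres link within 60 µm. Ratios carry exact conditional binomial intervals, shares Clopper-Pearson intervals and medians order-statistic intervals. The cells, gene lists and tests were chosen with earlier results of these data known. Named genes are those used by the rule, up to 12 highest and 12 lowest against other fibroblasts by the smaller of both sections' ratios, the 10 highest and 10 lowest between sections, Kdm6a, and up to 3 members of a list; genes named for holding in every strip or against another fibroblast set were picked after their values were seen. A gene that this rule names is not reported here. No doublet caller was run, and cells touching in a 5 µm section can share transcripts. The ratio code was tested on simulated data. Alternatives changed the quality minimum, the counted area, cell and gene minimums, the gate, thinning, scaling and the strips used. Python 3.11.15, numpy 2.4.6, scipy 1.17.1 and pandas 2.3.3 were used.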

Additional observations from a re-analysis of the deposited data

How the results depend on the processing

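No paired analysis was possible because there was 1 section per genotype. Shares of rich cells among fibroblasts (31.1% in WT and 34.5% in Utx-cKO) were higher in Utx-cKO in each alternative except without strip 3 of both sections, where they were 23.6% and 21.9%, and without Utx-cKO strip 3 alone, where they were 31.1% and 21.9%. They were 27.3% and 30.6% with a quality of at least 30, 25.7% and 31.3% over the nucleus alone, 34.9% and 41.5% in cells of at least 40 transcripts, 37.6% and 41.6% with a marker sum of at least 2, 20.5% and 22.9% with at least 5, 36.7% and 41.6% with a gate of at least 5, and 6.14% and 11.5%, or 20.5% and 31.5%, in cells thinned to 20 or 40 transcripts. Leaving out each strip in turn gave 23.6% to 34.0% in WT and 21.9% to 39.0% in Utx-cKO. The median distance to keratin-rich cells was 68.3 µm and 49.2 µm when those held at least 6 transcripts, 66.6 µm in WT when fibroblasts held no basal keratinocyte transcript, 49.4 µm in Utx-cKO in cells of at least 40 transcripts, and 135 µm and 85.2 µm without strip 3 of both sections. Leaving out each strip gave 49.3 to 135 µm in WT and 41.6 to 85.2 µm in Utx-cKO.

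The count of 6 genes higher than in other fibroblasts was 1 of 153 compared over the nucleus alone, 0 of 189 without strip 3 of both sections, 3 of 176 when thinned to 20 transcripts, 20 of 300 as mean counts per cell, and 0 to 8 when each strip was left out. The count of 28 lower genes was 6, 7, 6 and 11 in those settings, 11 of 229 with the gate of at least 5, 17 of 279 with no basal keratinocyte transcript, and 6 to 31 when each strip was left out. Between the sections, the 31 higher and 28 lower genes were 7 and 16 of 131 over the nucleus alone, 14 and 13 of 164 without strip 3 of both sections, 10 and 12 of 135 when thinned to 20, and 6 and 106 of 265 as mean counts per cell. The higher genes were 20 of 222 at a quality of at least 30 and 73 of 358 with a gene minimum of 50 counts. Leaving out each strip gave 30 to 44 higher and 18 to 34 lower. Fewer genes met the minimum in the smaller sets.

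Directions of named genes turned in these settings. Over the nucleus alone Elovl4 was 0.21 and Krt17 0.12 in Utx-cKO, and S100a14 0.030 in WT, against other fibroblasts, and C5ar1 was 0.99 and Kdm6a -0.34 between sections. As mean counts per cell Kdm6a was -0.52. Without strip 3 of both sections Fasn was -0.21 in Utx-cKO and Cidea 0.24 in WT against other fibroblasts, and Ptgs2 was 0.71, Rgcc 0.028, Il1r2 0.073 and Mki67 2.18 between sections. With each strip left out in turn, Cidea in WT ranged from -1.54 to 0.24, Ptgs2 from -2.54 to 0.50, Rgcc from -1.95 to 0.26, Mki67 from -1.44 to 2.33, Pla2g2d from -2.59 to 0.71 and Fasn in Utx-cKO from -0.21 to 1.15. With strips weighted equally Mki67 was 0.21. The cause was not tested. Over all alternatives, 433 of 576 values of named genes against other fibroblasts and 330 of 420 between sections stayed within the counting interval of the reported value. That interval is wide for genes with few counts. Against other fibroblasts, 53 values, in 13 of 18 genes, fell under 1.5-fold and 7, in 5 genes, reversed. Between sections, 23 values, in 12 of 20 genes, fell under 1.5-fold and 10, in 6 genes, reversed.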
